A study of Mus musculus with 6 samples.

Results

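In total, 9 genes of iron storage, iron transport and metal response were followed in CD45+ cells of the ventral midbrain: Fth1, Ftl1, Tfrc, Slc40a1, Slc11a1, Hmox1, Mt1, Mt2 and Slc39a1. They were chosen by name for their roles in metal handling, with earlier results of these data known, and are 9 of the 32285 genes in the count table. All mice were Line 61 males, which express human α-Syn under the Thy1 promoter from a transgene on the X chromosome, so the control groups carried the transgene too. At an age of 12 to 15 weeks they received PBS, monomer (human α-Syn monomer) or PFF (human α-Syn preformed fibrils) into both striata, and cells were taken 6 weeks after injection. In the PFF groups, vehicle (VH) or AZD1480, an inhibitor of the kinases JAK1 and JAK2, was given by daily oral gavage from week 2, the latter at 25 mg/kg. Live CD45+ cells of 3 to 5 pooled midbrains formed 1 sample, and each condition was 1 scRNA-Seq library, so library and condition cannot be told apart.

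Ferritin, a shell made of the heavy chain encoded by Fth1 and the light chain encoded by Ftl1, stores iron in the cytosol. Iron enters cells bound to transferrin through the receptor encoded by Tfrc, leaves them through ferroportin, encoded by Slc40a1, and is moved out of phagosomes by the transporter encoded by Slc11a1. Heme oxygenase 1, encoded by Hmox1, frees iron from heme. Metallothioneins, encoded by Mt1 and Mt2, bind zinc and other metals, and Slc39a1 encodes a zinc importer. When iron is scarce, iron regulatory proteins bind hairpins called iron-responsive elements (IRE), which blocks translation when the IRE lies in the 5′ UTR and protects the mRNA from decay when it lies in the 3′ UTR. Transcription of metallothionein genes is driven by zinc through metal response elements, and in the brain and immune cells by glucocorticoids and inflammatory signals as well.

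The IRE are shown because they mark the members under this control, whose effect on translation is not seen in UMI counts. UTRs of GENCODE vM21 on mm10 were searched on the transcript strand for a bulged C, 5 bases, the loop CAGTGN and 5 bases that pair with the first 5, G-U pairs allowed. Fth1, Ftl1 and Slc40a1 each held 1 match in the 5′ UTR and Tfrc held 4 in the 3′ UTR, while the other 5 members held none. Among all genes with an annotated UTR, 31 of 20580 (0.151%) held a match in the 5′ UTR and 129 of 20978 (0.615%) in the 3′ UTR. In the sequences below, the bulged C and the loop are in capitals, and all are read on the transcript strand, 5′ to 3′.
Fth1 5′ UTR, chr19:9982732-9982760, plus strand: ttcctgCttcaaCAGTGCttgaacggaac
Ftl1 5′ UTR, chr7:45459779-45459807, minus strand: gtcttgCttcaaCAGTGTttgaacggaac
Slc40a1 5′ UTR, chr1:45925465-45925493, minus strand: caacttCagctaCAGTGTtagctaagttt
Tfrc 3′ UTR, chr16:32631219-32631247, plus strand: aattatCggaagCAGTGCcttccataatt
Tfrc 3′ UTR, chr16:32631598-32631626, plus strand: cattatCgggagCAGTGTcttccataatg
Tfrc 3′ UTR, chr16:32631663-32631691, plus strand: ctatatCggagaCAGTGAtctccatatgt
Tfrc 3′ UTR, chr16:32631710-32631738, plus strand: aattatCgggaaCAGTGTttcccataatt

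The Mt1 and Mt2 promoters are shown because both genes differed between VH and AZD1480 in microglia. RefSeq windows on GRCm38.p6, of 250 bases before and 50 after a start site, were matched for 7 of the 9 members. They were searched on both strands for the metal response element (TGCACNC or TGCGCNC), the gamma-activated site bound by STAT dimers (TTCNNNGAA) and the antioxidant response element (TGACNNNGC). Mt2 held 4 metal response elements and Mt1 held 3 in the window, against at least 1 in 25.7%, at least 2 in 7.11% and at least 4 in 0.517% of 32851 promoters. In 1 of its 2 windows Tfrc held 2, and Slc39a1, Slc11a1, Fth1 and Ftl1 held none. No window of a member held the gamma-activated site, which 8.3% of all promoters held, and Slc39a1 and Mt2 each held 1 antioxidant response element, which 12.4% held. A match describes letters in this window and nothing more. In the 250 bases before each start site, metal response elements of either strand are in capitals.
Mt2 promoter, chr8:94172368-94172617, plus strand: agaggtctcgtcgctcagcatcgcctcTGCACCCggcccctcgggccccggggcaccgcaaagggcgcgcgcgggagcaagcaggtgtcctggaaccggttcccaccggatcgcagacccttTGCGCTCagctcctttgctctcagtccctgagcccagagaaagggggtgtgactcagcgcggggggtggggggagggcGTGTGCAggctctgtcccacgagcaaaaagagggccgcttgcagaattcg
Mt1 promoter, chr8:94178839-94179088, plus strand: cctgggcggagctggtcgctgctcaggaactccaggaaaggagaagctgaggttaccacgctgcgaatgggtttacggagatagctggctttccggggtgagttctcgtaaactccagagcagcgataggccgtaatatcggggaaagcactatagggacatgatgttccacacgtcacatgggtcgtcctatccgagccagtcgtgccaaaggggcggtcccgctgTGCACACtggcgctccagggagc

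The members lie apart in the genome except for the metallothioneins, and all 9 are protein-coding. On mm10, Fth1 spans chr19:9980598-9985098, Ftl1 chr7:45457944-45459884, Tfrc chr16:32608920-32632794, Slc40a1 chr1:45908068-45926523, Slc11a1 chr1:74375195-74386062, Hmox1 chr8:75093621-75100589, Mt2 chr8:94172664-94173568, Mt1 chr8:94179082-94180327 and Slc39a1 chr3:90248172-90253612. Ftl1 has a near-identical copy in the table, Ftl1-ps1, and overlaps Gm22133 on its own strand, so its level is less certain than the others.

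The libraries held 99658216 to 116440449 UMIs, and after filters PBS kept 14617 cells, monomer 15031, PFF + VH 34436 and PFF + AZD1480 13021. PFF + VH stood apart by its depth, with a median of 2306 UMIs per cell against 6616 to 7028 in the others. Libraries shared 0.346% to 1.033% of the barcodes of the smaller one. Cells were put into classes by marker UMIs, which gave 11301 to 31002 microglia-like cells (MG) and 179 to 283 border-macrophage-like cells (BAM) per library, and 12 to 137 cells in each of the monocyte-, dendritic-cell-, T-, NK-, B- and neutrophil-like classes (Mono, DC, T, NK, B and Neu). The 10 MG markers summed to 12510 to 15150 UMIs per 1000000 UMIs of the class (CPM) in MG and 2984 to 3534 in BAM, and the 9 BAM markers to 27.9 to 56.9 in MG and 9120 to 12180 in BAM. The labels list 4 hashtag antibodies for PFF + VH and 5 for PFF + AZD1480, as many as the replicates named in the methods, but no label ties a hashtag to a pool of mice. Hashtags were taken as replicates on that count alone, so every n and p-value over hashtags measures the spread between hashtags, which may be technical. A single hashtag was called in 52% of PFF + VH cells and 81% of PFF + AZD1480 cells by HTODemux, and in 19.8% and 79.9% by MULTIseqDemux, a second caller.

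Ferritin mRNA was abundant in all classes and highest in BAM. Fth1 in MG stood at 2490 CPM in PBS, 2684 in monomer, 3988 with PFF + VH and 3472 with PFF + AZD1480. In BAM it stood at 5953, 6963, 5730 and 5390 CPM, above MG in each library. Mono and Neu lay between 3566 and 5353 CPM, and NK were the lowest class with 1431 to 2569 CPM. Ftl1 in MG stood at 1948 CPM in PBS, 1901 in monomer, 2418 with PFF + VH and 2215 with PFF + AZD1480, and in BAM at 4192, 4437, 4811 and 4000. The exact Poisson 95% intervals in MG, which cover counting error only, were narrow (3976 to 4001 CPM for Fth1 in PFF + VH), so the precision is set by the single library of each condition. Counts of 3′ ends were not divided by gene length, and levels are compared within a gene only.

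The other members were lower and differed more between classes. Tfrc, the transferrin receptor, stood at 11.9 to 13.22 CPM in MG, 16.05 to 42.03 in BAM and 38.11 to 75.91 in B cells, the last on 6 to 12 UMIs per library. Slc40a1, the iron exporter, was a gene of MG (78.83 to 113.5 CPM), BAM (67.41 to 136.3) and Neu (84.41 to 211.4). In Mono, DC, T, NK and B it stood between 0 and 13.35 CPM, on 0 to 5 UMIs per class and library. Slc11a1 was shared by MG (96.32 to 121.8 CPM), BAM (90.84 to 135.9), Neu (73.78 to 151.4) and Mono (64.1 to 229.5), and was lower in T (4.803 to 35.6). DC held 2 UMIs of it in PFF + VH and 0 in each other library. Hmox1 was highest in BAM in each library, with 94.17 to 189.6 CPM against 65.55 to 92.28 in MG.

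The metallothioneins and the zinc importer had their own orders. Mt1 in BAM stood at 562.6 CPM in PBS, 656.0 in monomer, 635.9 with PFF + VH and 483.0 with PFF + AZD1480, and in MG at 195.2, 228.2, 244.8 and 165.9. DC followed BAM in PBS (389.2 CPM) and monomer (500.2), on 17 or 18 cells, and in PFF + VH (313.1), on 12. The interval in PFF + VH (166.7 to 535.4, on 13 UMIs) was wide and enclosed the level of MG. In PFF + AZD1480 DC stood at 80.32 CPM (36.73 to 152.5, on 9 UMIs in 13 cells), below MG. Neu stood at 25.24 and 33.39 CPM of Mt1 in PBS and monomer, and at 179.4 (133.6 to 235.8) and 100.8 (72.36 to 136.8) in the PFF libraries. The MG markers in Neu summed to 1864 and 701.1 CPM in the PBS and monomer libraries, and to 5311 (VH) and 2054 (AZD1480) in those with PFF, and their part in the levels of Neu, those of Slc40a1 included, was not tested. Mt2 was low throughout, with 2.667 to 5.798 CPM in MG and 9.171 to 16.25 in BAM. Slc39a1 stood at 28.74 CPM in PBS MG, 29.17 in monomer, 54.35 with PFF + VH and 30.09 with PFF + AZD1480, so 1 library lay apart from the other 3. In BAM it stood at 27.86, 29.96, 50.33 and 22.93 CPM, and the interval of PFF + VH (36.12 to 68.28) overlapped those of PBS and monomer.

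**Figure D1:**
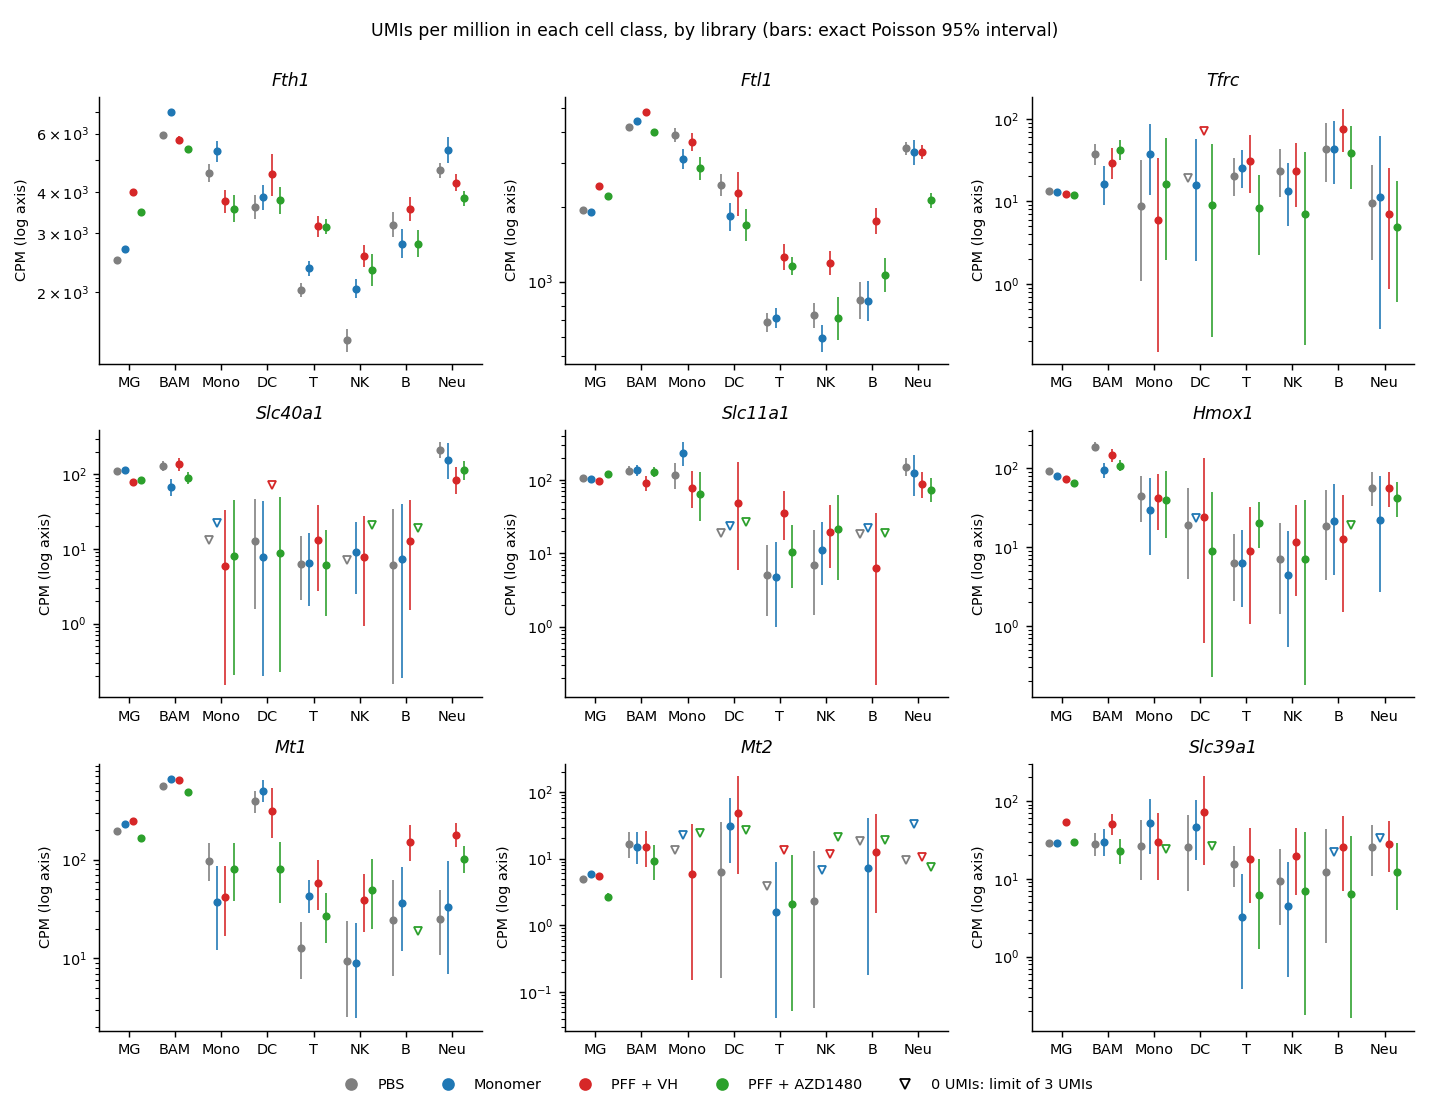
Level of each member (CPM, log axis, scaled per panel) in 8 cell classes, with 1 point per library and its exact Poisson 95% interval, and open triangles at the limit of 3 UMIs where no UMI was counted. Fth1, Ftl1 and Mt1 lay higher in BAM than in MG in all 4 libraries, Slc40a1 was near 0 outside MG, BAM and Neu, and Slc39a1 in MG was highest in PFF + VH.

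Shares of cells with a UMI were compared after each cell was thinned to 1000 UMIs. Slc40a1 was seen in 9.96% of MG in PBS, 10.3% in monomer, 7.46% with PFF + VH and 7.92% with PFF + AZD1480, and in 0% to 1.47% of T cells, which should lack it. Without thinning the MG shares were 46.8%, 45.0%, 19.6% and 36.5%, at median depths of 7328, 6919, 2403 and 6942 UMIs. Mt1 was seen in 12.7%, 15.1%, 18.3% and 12.5% of thinned MG (39.9%, 43.2%, 36.1% and 42.7% without thinning) and in 0.735% to 4.41% of T cells. For Slc39a1 the thinned MG shares were 2.67%, 2.95%, 5.70% and 2.71% (17.7%, 17.3%, 15.3% and 17.7% without thinning), and 0% to 2.63% in T cells, and the exact binomial 95% interval in T cells enclosed the MG share in each library.

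Between the libraries, which were not tested because each condition was 1 library, MG of both PFF libraries lay above PBS and monomer for Fth1 and Ftl1 and below them for Slc40a1 and Hmox1. T cells of the 4 libraries, in the same order, had 2025, 2358, 3155 and 3143 CPM of Fth1 and 686.2, 712.5, 1260 and 1160 of Ftl1. The MG markers there summed to 494.9, 629.2, 1469 and 1115 CPM, and their part was not tested. Fth1 was higher in both PFF libraries in NK too, and lower in both in BAM, Mono and Neu. With each cell thinned to 1000 UMIs, Fth1 in MG stood at 2431 (PBS), 2615 (monomer), 3981 (PFF + VH) and 3664 CPM (PFF + AZD1480), Ftl1 at 1885, 1797, 2408 and 2276, Slc40a1 at 111.9, 113.2, 78.85 and 85.48, and Hmox1 at 89.33, 74.36, 70.65 and 59.17, so the order was kept for all 4. A band of cells of 2000 to 5000 UMIs, chosen once PFF + VH had been seen to be shallower, held 13.7%, 15.8%, 40.9% and 19.4% of the MG of the 4 libraries, and their median depth still ran from 3034 UMIs in PFF + VH to 3868.5 in monomer. In it Fth1 in MG stood at 2651 (PBS), 2728 (monomer), 4018 (PFF + VH) and 5132 CPM (PFF + AZD1480). Ftl1 stood there at 1839, 1825, 2477 and 2885 CPM and Slc40a1 at 118.0, 113.8, 81.21 and 86.46. The order of the PFF libraries against PBS and monomer was kept in this band for these 3 genes. For Hmox1 it was not, with 63.14, 58.21, 74.53 and 56.37 CPM. Mt1 in PBS and monomer, below PFF + VH over all cells too, stood at 115.3 and 158.9 CPM against 242.7 in PFF + VH. Mt1 in PFF + AZD1480 lay below PBS over all cells (165.9 against 195.2 CPM) and above it in this band (147.6).

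The comparison of cell classes asked where each member was high, with MG and the other class of the same hashtag as a pair. Fth1 rose from 3709 ± 398.8 CPM (SD, n = 8 hashtags) in MG to 5388 ± 931.1 in BAM, higher in 8 of 8, with a log2 fold change of 0.56 (SE 0.11, adjusted p = 4.3e-05 by edgeR's quasi-likelihood test, Benjamini-Hochberg method). Ftl1 rose from 2314 ± 165 to 4449 ± 725.8 CPM (log2 fold change 0.96, SE 0.11, adjusted p = 6.5e-10) and Tfrc from 12.48 ± 1.248 to 33.42 ± 10.33 (1.48, SE 0.29, adjusted p = 7.7e-05), both in 8 of 8 hashtags. Mt1 rose from 207.3 ± 48.63 to 511.3 ± 188.9 CPM in 8 of 8 hashtags (1.35, SE 0.14, adjusted p = 1.8e-10), and Hmox1 from 71.1 ± 7.946 to 131.8 ± 52.7 in 6 of 8 (0.91, SE 0.16, adjusted p = 1.4e-05). These 5 members were thus higher in BAM, while 3 transporters did not pass the test.

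Those were Slc40a1 (log2 fold change 0.45, SE 0.18, adjusted p = 0.0543), Slc11a1 (0.09, SE 0.15, adjusted p = 0.713) and Slc39a1 (-0.39, SE 0.25, adjusted p = 0.268). Slc40a1 was higher in BAM in 5 of 8 hashtags and lower in 3, and ran there from 46.02 to 206.5 CPM. By library it stood in BAM and MG at 130.8 and 112.1 CPM (PBS), 67.41 and 113.5 (monomer), 136.3 and 78.83 (PFF + VH) and 89.42 and 84.85 (PFF + AZD1480). It passed the test when hashtag 2 or 4 of either library was left out (log2 fold change up to 0.61) and with stricter markers (0.68, adjusted p = 0.00344). In cells of 2000 to 5000 UMIs it had 0.77, on 4 hashtags of PFF + VH and 1 of PFF + AZD1480. Mt2 was left out by the filter, which kept genes by their level over both classes, set mainly by MG. Mt2 was low in MG (3.837 ± 2.332 CPM) and stood at 14.3 ± 12.3 CPM in BAM, on 19 UMIs. It was higher in BAM in 7 of 8 hashtags and lower in 1, and was not tested. Genes low in MG could be lost in this way, so the counts below cover only the genes that were kept. Of all genes tested 29.4% were called in this comparison, against 5 of the 8 members tested. Of the 64 tested genes of 78 in lists of metal and redox pathways, 13 were higher and 12 lower in BAM (median log2 fold change 0.012, against -0.0375 over all genes). In the uptake list 2 of 7 were higher and 2 lower. The largest changes over all lists were in Cd163, the scavenger receptor for hemoglobin bound to haptoglobin (9.47), Cp, the ferroxidase ceruloplasmin (4.47), Blvrb, biliverdin reductase B (2.78), and Sgk1, a kinase induced by glucocorticoids (-2.68).

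Ftl1 and Mt1 were lower in T cells than in MG of the same hashtags. Ftl1 fell from 2349 ± 173.3 CPM (n = 6 hashtags) to 1036 ± 105.5 (log2 fold change -1.09, SE 0.12, adjusted p = 1.8e-13 by edgeR), and Mt1 from 217.3 ± 51.02 to 36.92 ± 35.8 (-2.35, SE 0.34, adjusted p = 2.6e-09), both lower in 6 of 6. Slc40a1 (-2.89), Slc11a1 (-2.75) and Hmox1 (-3.10) were also lower, on 3 to 6 UMIs in all T cells of the 6 hashtags. Fth1 fell less, from 3765 ± 358.6 to 2907 ± 367.7 CPM (-0.28, SE 0.10, adjusted p = 0.0174), and lost its call when any 1 hashtag was left out (adjusted p 0.0577 to 0.267), with stricter markers (adjusted p = 0.190) and when thinned (adjusted p = 0.0950). Slc39a1 (-1.51, adjusted p = 0.0278, on 5 UMIs) lost its call without hashtag 3 of PFF + VH or without hashtag 1, 2 or 4 of PFF + AZD1480 (adjusted p up to 0.121), and with stricter markers (adjusted p = 0.0602). Tfrc and Mt2 were left out by the filter and not tested. Tfrc stood at 15.06 ± 14.68 CPM in T cells on 6 UMIs, above MG (12.32 ± 1.426) in 4 of 6 hashtags. By library it was higher in T cells than in MG in PBS (20.41 against 13.22 CPM), monomer (25.62 against 13.02) and PFF + VH (31.15 against 12.28), and lower in PFF + AZD1480 (8.228 against 11.9). The filter kept genes by their level over both classes, which MG set, so members with 3 to 6 UMIs in T cells were tested for their level in MG while Tfrc was not, and the number of members lower in T cells is no result. Of all genes tested 49.3% were called in either direction. The same filter chose the 45 listed pathway genes tested, so their number in each direction is no result either. The largest fitted values of called genes among them were those of Lrp1, a scavenger receptor that takes up heme bound to hemopexin (-3.99, SE 0.39), and the copper transporter gene Slc31a2 (-3.50, SE 0.98). Sgk1 (-3.12, SE 0.25) and Hfe, a partner of the transferrin receptor (-3.00, SE 0.74), came next. The filter, set by MG, chose these genes too, so their direction and order are no result.

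**Figure D2:**
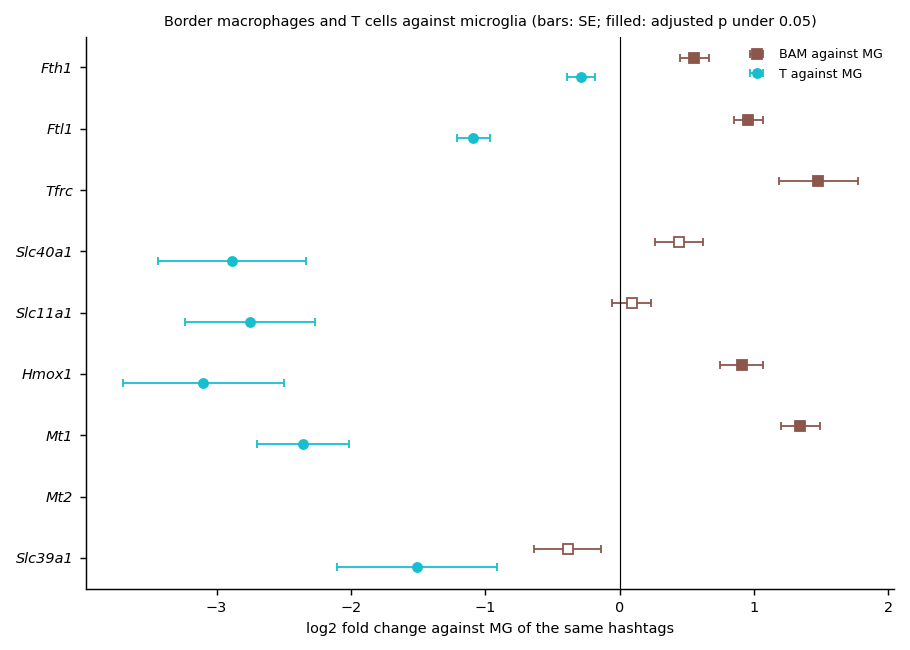
Log2 fold change of each member in BAM (squares, n = 8 hashtags) and T cells (circles, n = 6) against MG of the same hashtags, with SE bars and filled symbols for an adjusted p under the threshold of 0.05. Fth1, Ftl1, Tfrc, Hmox1 and Mt1 were higher in BAM, Ftl1 and Mt1 were lower in T cells, and Slc40a1, Slc11a1, Hmox1 and Slc39a1 rest on 3 to 6 UMIs there. Tfrc in T cells and Mt2 in both classes were not tested.

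MG were next put into states by UMIs of marker genes, none of which is a member, after thinning to 1000 UMIs. Each state was set on its own, so a cell could be in more than 1. The other MG of a state include cells of the other states. The states were disease-associated microglia (DAM), interferon-responsive (IFN), cycling, inflammatory (Il1b, Tnf, Ccl3, Ccl4, Nlrp3 and Cxcl2) and immediate early (Fos, Jun, Egr1, Junb, Dusp1 and Atf3). They are ranges of a score, not cell types. In PFF + VH, 2549 MG lay at or 1 UMI under the minimum for DAM and 1247 were in the state. DAM made up 1.21% of MG in PBS, 0.737% in monomer, 4.67% with PFF + VH and 4.21% with PFF + AZD1480, and immediate early MG 21.5%, 20.8%, 11.7% and 18.2%. Inflammatory MG made up 12.67%, 12.53%, 17.67% and 23.25%, in the same order. Immediate early genes are also induced by the dissociation of tissue.

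DAM had more ferritin and less ferroportin mRNA than the other MG. Fth1 rose from 3514 ± 364.8 CPM (n = 9 hashtags) to 7022 ± 589.8 (log2 fold change 1.10, SE 0.06, adjusted p = 3.4e-18 by edgeR), and Ftl1 from 2230 ± 159 to 3705 ± 389.6 (0.83, SE 0.06, adjusted p = 4.5e-14), both in 9 of 9. Slc40a1 fell from 83.8 ± 7.466 to 41.1 ± 7.555 CPM in 9 of 9 hashtags (-0.96, SE 0.10, adjusted p = 4.4e-10). Slc11a1 rose from 107.8 ± 13.59 to 154.6 ± 11.88 CPM in 9 of 9 (0.64, SE 0.07, adjusted p = 2.1e-09). More of the genes for storage and phagosomal transport and less of the gene for export was thus counted in these cells.

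The metal-response members rose in DAM as well. Mt1 rose from 196.1 ± 51.45 to 280.2 ± 70.97 CPM in 8 of 9 hashtags (0.58, SE 0.09, adjusted p = 9.0e-07), Mt2 from 3.482 ± 2.178 to 7.261 ± 4.53 in 8 of 9 (1.07, SE 0.31, adjusted p = 0.00746) and Hmox1 from 68.32 ± 9.513 to 95.32 ± 29.33 in 7 of 9 (0.55, SE 0.11, adjusted p = 0.000106). The Hmox1 call was lost in cells of 2000 to 5000 UMIs (0.26, adjusted p = 0.441) and with stricter markers (0.58, adjusted p = 0.0592). The Mt2 call rested on 47 UMIs in DAM, with 0 in hashtag 1 of PFF + AZD1480. Mt2 was too low to be tested when thinned or in cells of 2000 to 5000 UMIs. Tfrc (0.47, adjusted p = 0.0576) and Slc39a1 (0.26, adjusted p = 0.0675) did not pass. Tfrc gained a call without hashtag 1 of PFF + VH (0.55, adjusted p = 0.0288) or of PFF + AZD1480 (0.56, adjusted p = 0.0280), and Slc39a1 without hashtag 4 of PFF + AZD1480 (0.30, adjusted p = 0.0332). Thus 7 of 9 members were called, where 30.1% of all genes were. Among the pathway lists 18 of 69 tested genes were higher and 9 lower (median 0.031, over all genes -0.016), and 5 of the 7 tested targets of the antioxidant factor NRF2 were higher. These were led by Slc7a11, a cystine transporter (1.92), and Srxn1, sulfiredoxin (1.58). Alas1, the first enzyme of heme synthesis, was higher too (1.06), and Tsc22d3, a glucocorticoid target, was lower (-1.01).

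The PBS and monomer libraries, which had no hashtags, entered no test of states, and their DAM were 153 and 95 cells. Fth1 stood at 5473 CPM in DAM of PBS and 6282 in monomer, against 7180 in PFF + VH and 6468 in PFF + AZD1480. Slc40a1 in DAM stood at 59.64, 67.78, 44.83 and 38.14 CPM in the 4 libraries, each below all MG of the same library.

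Inflammatory MG had the same directions. All 9 members were called, where 46.1% of all genes were, and 8 of them were higher by the fitted log2 fold change. Mt1 rose from 176.4 ± 45.55 to 279.3 ± 90.22 CPM in 9 of 9 hashtags (log2 fold change 0.79, SE 0.05, adjusted p = 1.8e-13 by edgeR) and Mt2 from 2.803 ± 1.674 to 6.863 ± 6.083 in 9 of 9 (1.37, SE 0.18, adjusted p = 2.4e-07). Hmox1 (0.63), Fth1 (0.55), Ftl1 (0.54), Tfrc (0.44), Slc11a1 (0.24) and Slc39a1 (0.22) were higher, and Slc40a1 fell from 90.43 ± 8.671 to 54.61 ± 6.846 CPM in 9 of 9 (-0.60, SE 0.05, adjusted p = 5.8e-12). In CPM, Tfrc stood at 14.33 against 11.46 (higher in 7 of 9 hashtags), Slc11a1 at 115.4 against 108.4 (8 of 9) and Slc39a1 at 41.42 against 39.11 (6 of 9). These gaps are smaller than the fitted values, which were scaled for the other genes of each sum (TMM). The calls of Tfrc, Slc11a1 and Slc39a1 were lost in cells of 2000 to 5000 UMIs (0.41, 0.12 and 0.06, adjusted p = 0.138, 0.292 and 0.779), those of Slc11a1 and Slc39a1 also when thinned (0.14 and 0.17, adjusted p = 0.175 and 0.310), and that of Slc39a1 with stricter markers (0.15, adjusted p = 0.266). In the pathway lists 28 of 71 genes were higher and 13 lower (median 0.056, over all genes -0.0015), with 6 of 7 NRF2 targets higher. The largest changes were in Slc7a11 (1.81), Srxn1 (1.58), Steap3, a reductase that prepares endosomal iron for export to the cytosol (1.18), and Txnrd1, thioredoxin reductase (0.88).

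Immediate early MG differed in that the ferritin chains went opposite ways. Fth1 fell from 3863 ± 350 to 2879 ± 367 CPM in 9 of 9 hashtags (log2 fold change -0.31, SE 0.03, adjusted p = 1.6e-10 by edgeR), while Ftl1 rose from 2225 ± 190.9 to 2652 ± 185.8 in 9 of 9 (0.37, SE 0.03, adjusted p = 2.5e-10). Mt1 rose from 178.8 ± 48.61 to 304.9 ± 95.82 CPM (0.88, SE 0.05, adjusted p = 3.5e-15) and Hmox1 from 62.46 ± 7.676 to 101.6 ± 18.98 (0.83, SE 0.05, adjusted p = 3.9e-14), both in 9 of 9. Slc40a1 stood at 74.77 ± 7.325 CPM against 83.23 ± 8.538, lower in 7 of 9 hashtags, with a log2 fold change of -0.03 after TMM scaling, which corrects CPM for the other genes of each sum (adjusted p = 0.7095). It and 4 further members did not pass, with Mt2 at 0.33, though Slc39a1 gained a call without hashtag 3 of PFF + AZD1480 (0.17, adjusted p = 0.0317). Thus 4 of 9 members were called, where 40.2% of all genes were. In the lists 21 of 70 genes were higher and 16 lower (median 0.014, over all genes -0.012). The largest changes were in Tsc22d3 (1.38), Srxn1 (0.86), Cp (-0.81) and Per1, a clock gene induced by glucocorticoids (0.63).

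In IFN MG, Fth1 rose from 3864 ± 373.2 to 5298 ± 595.2 CPM in 5 of 5 hashtags (log2 fold change 0.54, SE 0.08, adjusted p = 1.4e-05 by edgeR) and Slc40a1 fell from 80.37 ± 8.639 to 40.75 ± 9.924 in 5 of 5 (-0.93, SE 0.25, adjusted p = 0.016). In cycling MG, Slc40a1 fell from 81.01 ± 7.777 to 44.22 ± 23.33 CPM (-0.90, SE 0.26, adjusted p = 0.0114), Slc11a1 from 105.2 ± 11.13 to 68.22 ± 11.91 (-0.62, SE 0.22, adjusted p = 0.0358) and Hmox1 from 72.56 ± 9.074 to 32.07 ± 24.94 (-1.09, SE 0.31, adjusted p = 0.00779), each in 6 of 6. These states held few cells, and the 4 calls on Slc40a1, Slc11a1 and Hmox1 rested on 26 to 50 UMIs each. Slc40a1 in IFN MG lost its call without hashtag 2, 3 or 4 of PFF + VH (adjusted p = 0.0549 to 0.0905), and its call in cycling MG was lost without hashtag 3 of PFF + VH (adjusted p = 0.0608). Slc11a1 in cycling MG lost its call without hashtag 1, 3 or 4 of PFF + VH (adjusted p = 0.068 to 0.1) and Hmox1 without hashtag 4 of PFF + VH (adjusted p = 0.0546). With stricter markers, or in cells of 2000 to 5000 UMIs, all 5 calls in both states were lost, that of Fth1 included. In IFN MG, Fth1 had 0.44 and 0.28 in these settings, and Slc40a1 had -0.84 and -0.92, close to its main value. The 3 members in cycling MG had -0.41 to -0.87. No hashtag of PFF + AZD1480 held enough cells there, and the fits rested on 3 or 4 hashtags of PFF + VH. When thinned, the call of Fth1 in IFN MG was kept (0.40, adjusted p = 0.0125), and the other 4 were lost, with -1.36 (adjusted p = 0.285) for Slc40a1 in IFN MG and, in cycling MG, -0.54 (adjusted p = 0.620) for Slc40a1, -1.09 (adjusted p = 0.220) for Slc11a1 and -1.04 (adjusted p = 0.348) for Hmox1. Fth1 in cycling MG, not called otherwise, gained a call in cells of 2000 to 5000 UMIs (0.46, adjusted p = 0.0489) and when thinned (0.48, adjusted p = 0.0485). Thus 2 of 8 members tested were called in IFN MG and 3 of 7 in cycling MG, where 6.01% and 19.6% of all genes were. Of the listed pathway genes, 4 of 57 were higher in IFN MG, led by Keap1, the repressor of NRF2 (1.33), and in cycling MG 2 of 56 were higher and 1 lower, with Tsc22d3 at -1.05, Commd1 at 0.85 and Prdx1 at 0.76.

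**Figure D3:**
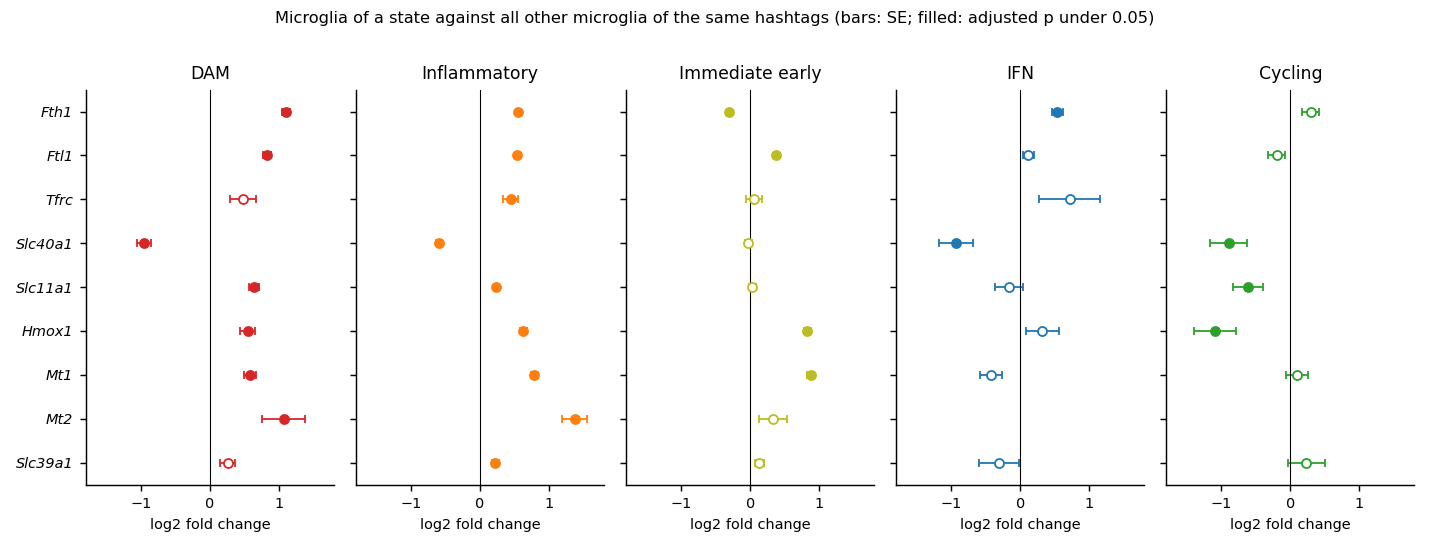
Log2 fold change of each member in MG of 5 states against all other MG of the same hashtags (n = 9 for DAM, inflammatory and immediate early, 5 for IFN and 6 for cycling), with SE bars, and filled symbols for an adjusted p under 0.05. Slc40a1 was lower in 4 states, with a fitted value near 0 in immediate early MG, and Fth1 was higher in DAM, inflammatory and IFN MG and lower in immediate early MG.

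The untested PBS and monomer libraries did not follow the PFF hashtags in every state. In inflammatory MG, Slc40a1 stood at 81.08 against 117.1 CPM in other MG with PBS and at 78.41 against 119.3 with monomer. It was lower in immediate early MG as well, at 91.5 against 118.4 CPM and 88.2 against 121.2, and the Poisson intervals did not overlap (87.62 to 95.52 and 115.9 to 121.0 for PBS). In CPM the PFF hashtags were lower there too (74.77 against 83.23, in 7 of 9). Their fitted value was after TMM scaling, which the levels given here lack. In IFN MG of PBS (53 cells) Slc40a1 stood at 104.9 CPM (76.82 to 140.0) against 112.0, so no fall was detectable at this depth, while in monomer (41 cells) it stood at 67.24 (42.14 to 101.8) against 113.7. In cycling MG (29 and 14 cells) it stood at 94.75 (60.71 to 141.0) against 112.0 CPM and at 104.9 (55.87 to 179.4) against 113.5, again with intervals that enclose the other MG. Hmox1 in DAM stood at 78.81 CPM (64.83 to 94.91) against 92.51 with PBS and at 103.0 (81.52 to 128.3) against 80.51 with monomer, so the rise over hashtags was not seen in PBS. Slc11a1 in inflammatory MG of PBS stood below other MG (97.28 against 106.0 CPM), and in monomer above (111.3 against 102.4). Fth1 and Ftl1 in immediate early MG kept their opposite directions, with Fth1 at 2222 against 2581 CPM and Ftl1 at 2750 against 1700 in PBS.

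The comparison of AZD1480 with VH after PFF injection set hashtags of 1 library against hashtags of another, so treatment and library cannot be told apart. Its p-values hold no spread between libraries, and PFF + VH was the shallower library. In MG 5 members were lower with AZD1480 and 1 was higher. Slc39a1, the zinc importer, stood at 51.98, 49.7, 51.75 and 53.48 CPM in the 4 VH hashtags and at 30.95, 30.16, 27.86, 29.74 and 32.15 in the 5 AZD1480 hashtags. The groups did not overlap and the gap was wider than the range of either. The log2 fold change was -0.83 (SE 0.05, adjusted p = 8.9e-07 by edgeR's quasi-likelihood test), and it was -1.077 (adjusted p = 3.2e-05) in cells of 2000 to 5000 UMIs, and over 20 alternatives the highest adjusted p was 0.00019. The AZD1480 level lay near the 28.74 and 29.17 CPM of PBS and monomer. PFF + VH was also the highest library for Slc39a1 in BAM, DC, T, NK, B and Neu, though not in Mono. Outside MG and BAM these levels rest on 0 to 12 UMIs per class and library. Whether a property of that library plays a part was not tested.

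The metallothioneins fell together. Mt1 stood at 201.4, 264.7, 243.9 and 279.3 CPM in VH and at 171.1, 177.4, 142.6, 167.4 and 153.4 in AZD1480, so that the lowest VH hashtag lay above the highest AZD1480 hashtag. Its log2 fold change was -0.66 (SE 0.09, adjusted p = 0.000388 by edgeR), and -0.72 (adjusted p = 0.00264) in cells of 2000 to 5000 UMIs, with adjusted p up to 0.00277 over 20 alternatives. Mt2 stood at 3.372, 5.944, 4.737 and 8.02 CPM in VH and at 2.257, 3.061, 2.331, 2.76 and 0.545 in AZD1480, on 343 and 158 UMIs. The groups did not overlap, and the log2 fold change was -1.31 (SE 0.31, adjusted p = 0.00817). In cells thinned to 1000 UMIs the call of Mt2 was lost (-0.94, adjusted p = 0.0948), which was the highest adjusted p over 19 alternatives.

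Ferritin fell less. Fth1 stood at 3986, 3893, 4161 and 4119 CPM in VH and at 3614, 3571, 3467, 3232 and 3097 in AZD1480, without overlap (log2 fold change -0.30, SE 0.06, adjusted p = 0.00503 by edgeR). Ftl1 stood at 2290, 2547, 2490 and 2406 CPM in VH and at 2283, 2302, 2185, 2064 and 2133 in AZD1480, with 1 AZD1480 hashtag above the lowest VH hashtag (-0.20, SE 0.06, adjusted p = 0.0294). With each cell thinned to 1000 UMIs Fth1 kept its fall (-0.24, adjusted p = 0.0184), and Ftl1 had -0.18 and lost its call (adjusted p = 0.0656). In cells of 2000 to 5000 UMIs both turned, to 0.30 for Fth1 (adjusted p = 0.130) and 0.19 for Ftl1 (adjusted p = 0.338), and neither was called. That band held 40.9% of MG in PFF + VH and 19.4% in PFF + AZD1480, at median depths of 3034 and 3366 UMIs. Ftl1 also lost its call without hashtag 2 or 3 of PFF + VH or hashtag 4 or 5 of PFF + AZD1480 (adjusted p up to 0.0922). Ftl1-ps1 stood at 20.1 ± 0.76 CPM in VH and 26.0 ± 3.47 in AZD1480, far below Ftl1 itself.

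Slc11a1, the phagosomal transporter, rose. It stood at 94.79, 96.18, 100.3 and 100.3 CPM in VH and at 131.7, 116, 113, 122 and 117.4 in AZD1480, without overlap (log2 fold change 0.24, SE 0.05, adjusted p = 0.00557 by edgeR). The difference was 0.21 in cells thinned to 1000 UMIs (adjusted p = 0.0595) and 0.29 in cells of 2000 to 5000 UMIs (adjusted p = 0.101, the highest over 20 alternatives), and was not called in either. The other 3 members did not pass. Slc40a1 stood at 78.3 ± 8.66 CPM in VH (n = 4) and 84.7 ± 5.04 in AZD1480 (n = 5), a log2 fold change of 0.06 (SE 0.06, adjusted p = 0.489 by edgeR). Tfrc stood at 12.7 ± 1.17 and 11.7 ± 1.73 (-0.16, SE 0.11, adjusted p = 0.290, and 0.12, adjusted p = 0.807, in cells of 2000 to 5000 UMIs) and Hmox1 at 74.5 ± 8.17 and 65.4 ± 8.07 (-0.24, SE 0.10, adjusted p = 0.0907). Hmox1 passed without hashtag 2 of PFF + AZD1480 (-0.29, adjusted p = 0.0470) and with MULTIseqDemux hashtag calls (-0.30, adjusted p = 0.0305).

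**Figure D4:**
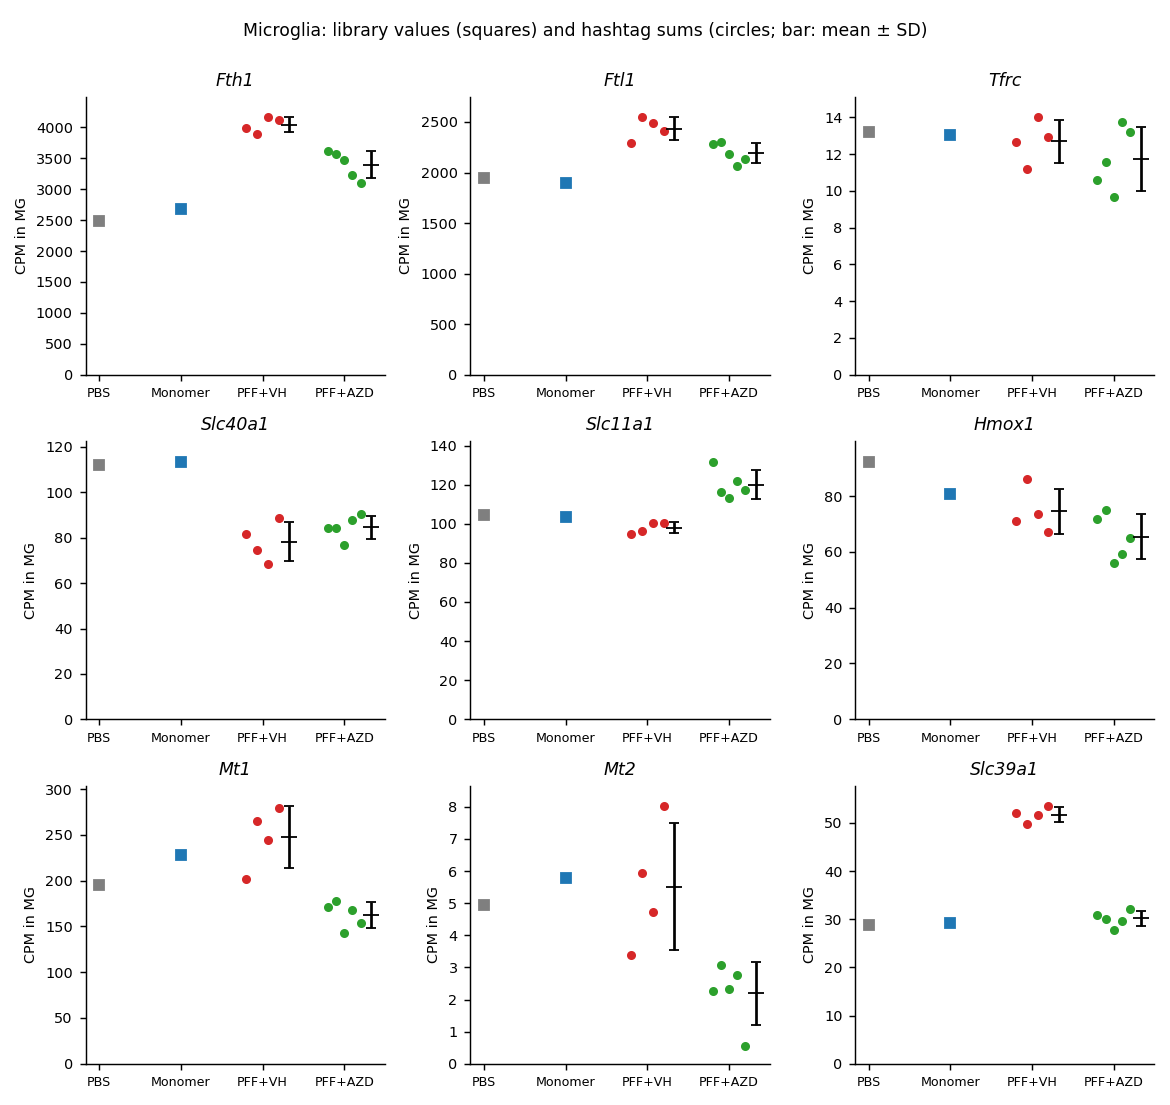
CPM of each member in MG (linear axes from 0), with squares for the PBS and monomer libraries, circles for the 4 hashtags of PFF + VH and the 5 of PFF + AZD1480, and bars for the mean and SD over hashtags. For Fth1, Mt1, Mt2 and Slc39a1 each VH hashtag lay above each AZD1480 hashtag, and for Slc11a1 below.

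In this comparison 27% of the 13550 genes tested were called, 1681 higher and 1977 lower in AZD1480, and 24.1% had hashtag groups that did not overlap, against 6 and 5 of the 9 members. Several whole-library measures differed between VH and AZD1480 in MG as well. Ribosomal protein genes summed to 78820 to 87150 CPM over VH hashtags and 58590 to 65420 over AZD1480 hashtags, Gm42418, which overlaps ribosomal RNA, to 11030 to 11920 and 8292 to 8583, and mitochondrial genes to 11610 to 13860 and 9280 to 10680. The IFN markers stood at 147 to 160 CPM in VH and 23.7 to 53.6 in AZD1480, and the cycling markers at 67.0 to 102 and 13.03 to 56.8. Of the markers of other cell types in MG, those of monocytes stood at 20.9 to 25.7 CPM in VH and 10.3 to 12.1 in AZD1480, of T cells at 6.23 to 10.2 and 2.18 to 4.45, of NK cells at 4.81 to 7.92 and 0.838 to 1.15, and of endothelial cells at 7.45 to 7.91 and 4.03 to 6.08. Neutrophil markers went the other way, with 327.2 to 358.2 CPM in VH and 379.6 to 431.9 in AZD1480. The ranges overlapped for BAM (42.3 to 59.3 and 29.0 to 46.4), dendritic-cell, B-cell, mast-cell, astrocyte, oligodendrocyte, neuron and erythroid markers (0.65 to 1.077 and 0.27 to 0.73 for the last). The part of these measures in the calls was not tested. Of the 72 tested pathway genes 8 were higher and 12 lower in AZD1480 (median 0.007, over all genes -0.0016).

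Among the zinc genes, Mt3, a further metallothionein, fell by 0.97 on the log2 scale (SE 0.22, adjusted p = 0.00602 by edgeR). The zinc exporter gene Slc30a1, a target of the metal-response factor MTF1, fell by 0.40 (adjusted p = 0.0291), whereas Mtf1 itself rose by 0.26 (adjusted p = 0.00994) and Slc39a10, a further zinc importer gene, by 0.20 (adjusted p = 0.0155). The other 12 of the 16 zinc genes did not pass. In the copper list 4 of 8 were lower, led by the chaperone gene Atox1 (-0.39), and none was higher. Nfe2l2, which encodes NRF2, was higher (0.64, SE 0.08, adjusted p = 0.000146), and of its 7 tested targets Srxn1 (0.62) and Gclc, glutamate-cysteine ligase (0.45), were higher while Prdx1 (-0.34) and Gpx4 (-0.27), which reduce peroxides, were lower. Of 6 tested glucocorticoid targets 2 were higher, Tsc22d3 (0.48, adjusted p = 0.0326) and Per1 (0.34, adjusted p = 0.0257), and none was lower. Among all genes tested 27% were called, and the counts in these short lists are a description only. Of the genes named here, Mt3, Nfe2l2, Srxn1 and Tsc22d3 had the largest changes, and the others were named after their values were seen. None of the 9 uptake, 4 export and 3 sensing genes tested passed.

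In BAM, none of the 6 members tested was called between AZD1480 and VH, where 0.897% of 3233 genes were (29 genes, and 396 at an unadjusted p under 0.05). Each hashtag held 29 to 72 BAM, and 1 AZD1480 hashtag with under 10 was left out. Mt1 stood at 704.6, 845.4, 249.8 and 391.2 CPM in VH and at 451.9, 567.5, 416.3 and 463.8 in AZD1480 (log2 fold change -0.26, SE 0.26, adjusted p = 0.775 by edgeR). The VH hashtags spread wider than the AZD1480 hashtags and enclosed them. In cells of 2000 to 5000 UMIs only 1 AZD1480 hashtag held at least 10 BAM (12 cells), so that fit assumes that it varies like the 4 VH hashtags. Mt1 had -1.66 there, Hmox1 -1.34 and Slc40a1 -1.17, none of them called. Over all cells, Fth1 (-0.28, SE 0.16, adjusted p = 0.495) and Ftl1 (-0.30, SE 0.16, adjusted p = 0.454) had values of the size seen in MG with wider errors. In cells of 2000 to 5000 UMIs they had -0.545 and -0.791 in BAM, on that 1 AZD1480 hashtag, against 0.295 and 0.185 in MG. Slc11a1 had 0.54 (SE 0.28, adjusted p = 0.446), Hmox1 -0.52 (SE 0.31, adjusted p = 0.535) and Slc40a1 -0.49 (SE 0.36, adjusted p = 0.621). Slc39a1, too low to be tested in BAM, stood at 36.44, 61.33, 54.31 and 23.01 CPM in VH and at 35.54, 14.19, 12.88 and 9.275 in AZD1480, on 28 and 14 UMIs, and the groups overlapped.

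The difference between AZD1480 and VH in BAM was not shown to differ from that in MG. In the test of the difference itself none of the 8 members tested was called (edgeR; 60 of 9108 genes, 0.659%, were called and 843 had an unadjusted p under 0.05). The smallest adjusted p was that of Mt1, whose log2 fold change between AZD1480 and VH was 0.44 higher in BAM (SE 0.24, adjusted p = 0.585). Slc40a1 had a difference of -0.51 (SE 0.32, adjusted p = 0.692) and Slc39a1 of -0.42 (SE 0.52, adjusted p = 0.894). These errors leave room for differences between AZD1480 and VH in BAM as large as those in MG. In T cells only Fth1 and Ftl1 could be tested, on 3 hashtags per library with 10 to 20 cells each. Neither was called (log2 fold change 0.07, SE 0.15, adjusted p = 0.851, and 0.00, SE 0.22, adjusted p = 0.999), where 1.16% of 778 genes were (9 genes by edgeR, 1 by DESeq2, and 112 at an unadjusted p under 0.05). None of the 27 pathway genes tested in BAM, the 3 in T cells and the 64 in the test of the difference was called.

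**Figure D5:**
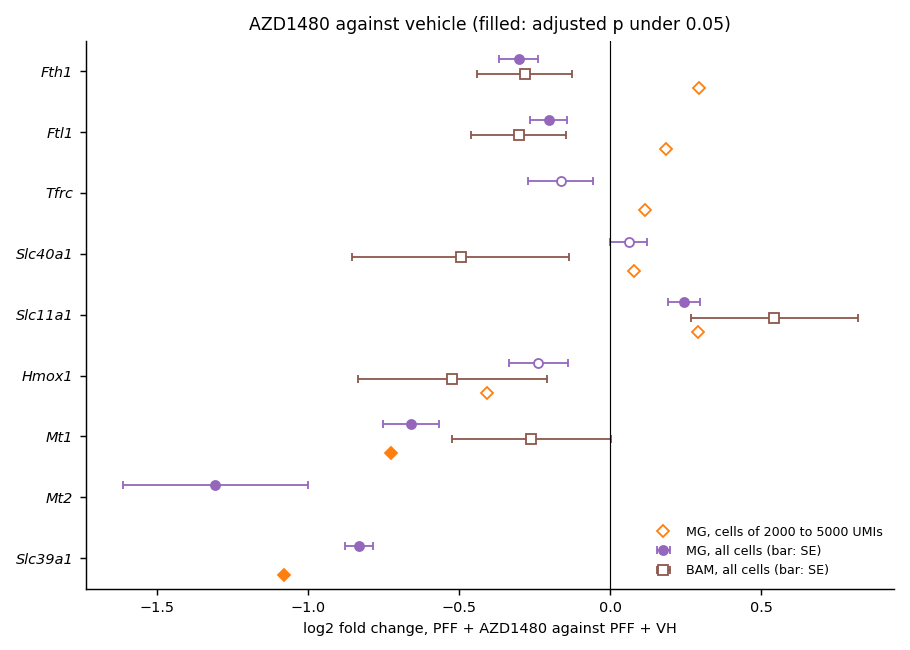
Log2 fold change of each member, PFF + AZD1480 against PFF + VH, in MG (circles, SE bars), BAM (squares, SE bars) and MG of 2000 to 5000 UMIs (diamonds, no error drawn), with filled symbols for an adjusted p under 0.05. Slc39a1 and Mt1 lay left of 0 and were called in MG at both depths, while Fth1, Ftl1 and the uncalled Tfrc changed side.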

How the data were processed

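CD45+ cells of each condition were profiled by 10x 3′ scRNA-Seq. The authors deposited raw UMI counts of genes by cells, obtained with Cell Ranger on mm10 (7.0.1 per the file headers). Cells of 500 to 15000 UMIs, 250 to 5000 genes and at most 10% mitochondrial UMIs were kept, as in the study. Hashtag counts of the PFF libraries were called with HTODemux (Seurat 5.3.0, positive quantile 0.99). Cells with more than 1 hashtag (10.7% in PFF + VH, 12.5% in PFF + AZD1480) or with none (37.3% and 6.41%) were left out of replicate sums. Median depths of MG by hashtag were 2622.5 to 3374 UMIs in PFF + VH, against 2403 in all its MG. In PFF + AZD1480 they were 6453 to 7269, against 6942. No other doublet caller was run. A class needed at least 3 marker UMIs from at least 2 genes, or 4000 CPM of MG markers, and a state 3 (inflammatory 15, immediate early 25) of 1000 thinned UMIs. These minima were set after the data were seen. Counts were summed per class and hashtag (at least 10 cells) and tested with edgeR 4.0.16 in R 4.3.3 (quasi-likelihood, TMM, filterByExpr, Benjamini-Hochberg over all genes tested, threshold 0.05). For classes or states against MG, with the hashtag as block, at least 10 UMIs had also to be expected in the smaller sum, a filter added after a test on simulated data. Alternatives were DESeq2 1.42.0, RLE scaling, other filters, hashtag calls, markers and depths. All 9 members are named, and of the pathway lists up to 4 called genes per comparison by size, with 8 more for AZD1480 against VH in MG, named after their values were seen. The members and lists were chosen with earlier results of these data known. Libraries held 99658216 to 116440449 UMIs.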

Additional observations from a re-analysis of the deposited data

How the results depend on the processing

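Over all comparisons, 996 recomputed log2 fold changes of members kept direction and side of the threshold, and 46 changed sign. Of those that kept their sign, 52 lost and 17 gained a call. Calls lost with a change of sign count among the 46, such as those of Fth1 and Ftl1 between AZD1480 and VH in MG of 2000 to 5000 UMIs. For counts of genes called, 107 stayed within 1.5 times and 47 did not. Of the recomputed levels in MG and BAM by library, 215 stayed within the main value's Poisson interval, which is narrow in MG, and 145 moved out of it. PFF + VH was sequenced to fewer UMIs per cell, and with all cells thinned to 1000 UMIs Ftl1, Slc11a1 and Mt2 lost their calls between AZD1480 and VH in MG. The causes of the changes were not tested, except that fewer UMIs, cells or genes entered the thinned, depth-limited and stricter settings.

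The numbers of hashtags carry no pairing in the labels, and same-numbered hashtags correlated by -0.073, 0.23, 0.006 and 0.149, with the best match in their own number for 2 of 4. With the number as a replicate block, 3298 genes were called in MG, Ftl1 lost its call (-0.18, adjusted p = 0.0612), Hmox1 gained one (-0.23, adjusted p = 0.0491), and in T cells Fth1 had -0.122 and Ftl1 -0.064.

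For AZD1480 against VH in MG, 1617 genes were called in cells thinned to 1000 UMIs and 498 in cells of 2000 to 5000 UMIs, where Fth1 had 0.295, Ftl1 0.185 and Tfrc 0.117. In BAM, the count of 29 became 134 with no filter, 11 with MULTIseqDemux, 1 with stricter markers, 3 when thinned, 9 at 2000 to 5000 UMIs (where the AZD1480 arm was 1 hashtag) and 6 to 46 leaving out 1 hashtag (6 without PFF + VH 1, 46 without PFF + AZD1480 1), and Mt1 ranged from -0.458 to 0.019 (without PFF + VH 2) leaving out 1 hashtag, with -1.662 at 2000 to 5000 UMIs. In T cells, the count of 9 became 1 with DESeq2, 25 with no filter, 2 with MULTIseqDemux, 2 with within-cell centring, 3 with stricter markers, 0 when thinned and 1 to 15 leaving out 1 hashtag (1 without PFF + VH 4, 15 without PFF + VH 3). Ftl1 there had -0.052 with RLE or DESeq2, -0.106 with MULTIseqDemux, -0.166 with within-cell centring, -0.045 with stricter markers, -0.039 without nuclear and mitochondrial genes, and -0.11 to 0.092 leaving out 1 hashtag, and Fth1 had -0.047 with within-cell centring and -0.071 to 0.2 leaving out 1. Both moved furthest when thinned, to 0.427 for Ftl1 and 0.351 for Fth1, and neither was called.

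For the difference between BAM and MG, the count of 60 became 35 with stricter markers, 7 when thinned, 5 at 2000 to 5000 UMIs and 32 to 66 leaving out 1 hashtag (32 without PFF + VH 4). With stricter markers Ftl1 had 0.024 and Tfrc -0.069, when thinned Slc11a1 -0.144 and Slc39a1 0.117, and at 2000 to 5000 UMIs, again with 1 AZD1480 hashtag, Fth1 -0.672, Slc11a1 -0.817 and Mt1 -0.774. Leaving out 1 hashtag gave -0.008 to 0.19 for Fth1, -0.147 to 0.071 for Ftl1 and -0.043 to 0.499 for Tfrc. None of these was called.

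For BAM against MG, 1160 genes were called when thinned and 994 at 2000 to 5000 UMIs, and Slc11a1 had -0.013 with stricter markers, -0.065 with filterByExpr alone, -0.285 at 2000 to 5000 UMIs and -0.011 to 0.16 leaving out 1 hashtag. For T against MG, 803 were called when thinned and 4454 with filterByExpr alone. Of the states, in the order stricter markers, thinned and 2000 to 5000 UMIs, DAM had 1352, 1490 and 1090 genes called, IFN 119, 118 and 105 (798 with filterByExpr alone, 293 to 419 leaving out 1 hashtag, the lowest without PFF + VH 4), cycling 453, 229 and 290 (2640 with filterByExpr alone) and immediate early 2654, 1851 and 1322. Inflammatory had 2552 when thinned and 2523 at 2000 to 5000 UMIs. Uncalled members changed sign as follows. When thinned, Slc39a1 had -0.095 in DAM, Ftl1 -0.063 in IFN, and Tfrc -0.008 and Slc11a1 -0.08 in immediate early MG. With filterByExpr alone, Ftl1 had -0.036 in IFN, and Mt1 -0.16 and Slc39a1 -0.012 in cycling MG. With stricter markers, Mt1 had -0.049 in cycling MG, and Slc40a1 0.078, Slc11a1 -0.028 and Mt2 -0.465 in immediate early MG. At 2000 to 5000 UMIs, Tfrc had -0.047 and Slc11a1 -0.107 in immediate early MG. Mt1 in cycling MG ranged from -0.002 to 0.156 leaving out 1 hashtag. Without a change of sign, 2 members gained a call by edgeR with filterByExpr alone. These were Mt1 in IFN MG (-0.576, adjusted p = 0.0125) and Ftl1 in cycling MG (-0.458, adjusted p = 0.00462). The settings filterByExpr alone and 2000 to 5000 UMIs were chosen after the data were seen, and on simulated data filterByExpr alone made a larger share of false calls than the filter used for BAM, T and cycling cells, and the same share for DAM (IFN was not simulated).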

Other observations

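The genes whose pattern was most like that of each member were found over 26 sums of a class in a library with at least 20 cells, among 6747 genes whose mean was 20 CPM or more, by Pearson's r of log2(CPM + 10). Sums of a library share its depth and reagents, and the classes share their markers, so r is a description without a test. Fth1 was most like Apoe, the lipid carrier (r = 0.851), Wfdc17 (0.848) and Lyz2, lysozyme (0.843), and Ftl1 was most like Atp6v0c, a subunit of the lysosomal proton pump (0.945). Slc40a1 was most like Bmpr1a, a receptor for bone morphogenetic proteins (0.914). Slc11a1 was most like Creg1 (0.936), Hmox1 most like Wdfy3 (0.946), and Mt1 most like the chemokine genes Ccl12 (0.921) and Cxcl16 (0.908). Slc39a1 was most like Zeb2os (0.854), Nupr1 (0.848) and Tlr2 (0.844). Tfrc had the lowest best match, with Noc2l at 0.758.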
